A study of Mus musculus with 31 samples.

Results

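The chemokines and chemokine receptors of mouse embryonic fibroblasts were followed on single-colour expression arrays while the cells were driven toward pluripotency. Members were all genes with a chemokine ligand symbol (Ccl, Cxcl, Cx3cl1), a classical receptor symbol (Ccr, Cxcr, Cx3cr1) or an atypical receptor symbol (Ackr). There were 53 of them among the 19938 genes that could be named on the array, 19 CC ligands, 13 CXC ligands, 1 CX3C ligand, 9 CC receptors, 6 CXC receptors, 1 CX3C receptor and 4 atypical receptors. A further 7 probe sets that carry several symbols were not counted as members.

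The 3 arms of the study differ in the retroviruses given to primary fibroblasts from mouse embryos (MEFs). The arm called 4F received Oct4, Sox2, Klf4 and c-Myc, the arm called 3F received the same genes except c-Myc, and the control arm received GFP. A set called day 0 was taken before any virus. All cells grew in DMEM with 10% serum. Pairs of arrays covered 4F days 1, 2, 3, 4, 5, 6 and 8, GFP days 1, 3, 5 and 8, and day 0. Single arrays covered 4F days 10 and 12, 3F days 3, 5, 8 and 12, and GFP day 12, and these 7 groups carry no test of their own. In 1 label field the 3F samples are said to have the full factor set while 3 factors are named there, and the titles decided here.

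Chemokines are small secreted proteins that draw cells along a gradient, and the spacing of their first cysteines gives the CC, CXC and CX3C families. Their receptors couple to inhibitory G proteins, whereas atypical receptors bind the ligand without that coupling and mostly remove it. Fibroblasts are a known source of ligands such as Ccl2, Cxcl1 and Cxcl5 when inflammatory signals activate NF-kB, and of Cxcl12, which holds stem and progenitor cells in their niches through Cxcr4.

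Values are log2 signals as deposited, so 1 unit is a doubling. Probe sets differ in how strongly they bind, so signals of different genes are not compared as levels, and the split below only marks where a signal passed the median. The median over all named genes was 6.33, and a gene whose highest group mean stayed under it is called low here. By that measure 36 of the 53 members were low and 17 were not. The 17 were the CXC ligands Cxcl1, Cxcl5, Cxcl10, Cxcl12, Cxcl14, Cxcl15 and Cxcl16, the CC ligands Ccl2, Ccl5, Ccl7, Ccl8, Ccl9, Ccl11 and Ccl20, the membrane-anchored ligand Cx3cl1, and 2 receptors, Cxcr4 and Ackr3. Closest to the line from above was Cxcl16 with a highest group mean of 6.52, and from below Cx3cr1 with 6.25. A low array signal does not show that a gene is silent or expressed less than another.

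**Figure D1:**
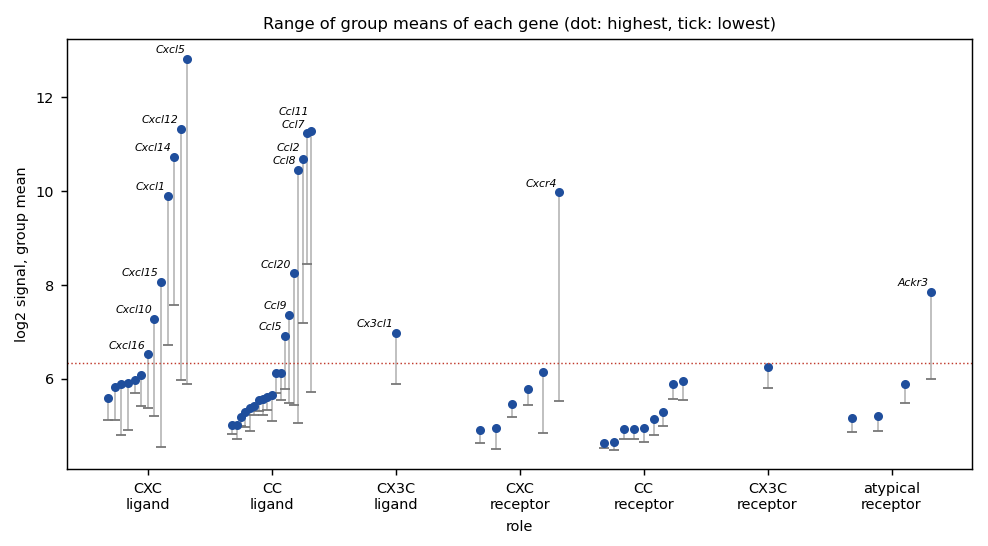
Highest (dot) and lowest (tick) group mean of log2 signal for each of the 53 genes, sorted by role. The dotted line is the median of all named genes, 6.33, and genes above it carry their symbol. The 17 labelled genes are 15 ligands and the receptors Cxcr4 and Ackr3. The height of a dot depends on the probes as well as on the transcript.

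The single-array values of the 36 low members lay between 4.48 and 6.85, and their group means spanned between 0.12 and 1.31 log2 units. All 9 CC receptors were among them (Ccr1, Ccr2, Ccr3, Ccr4, Ccr6, Ccr7, Ccr8, Ccr9 and Ccr10, from 4.49 to 5.99). The receptors for many of the ligands described below, such as Cxcr2 for Cxcl1 and Cxcl5, Ccr2 for Ccl2 and Ccl7, and Ccr3 for Ccl11, were under the line in each arm. The other low receptors were Cxcr1, Cxcr3, Cxcr5, Cxcr6, Cx3cr1, Ackr1, Ackr2 and Ackr4. The low ligands were Ccl1, Ccl3, Ccl4, Ccl6, Ccl12, Ccl17, Ccl19, Ccl22, Ccl24, Ccl25, Ccl26, Ccl28, Cxcl2, Cxcl3, Cxcl9, Cxcl11, Cxcl13 and Cxcl17. The line was drawn on the highest group mean, so a member that changes is more likely to lie above it, and the calls on its 2 sides are not compared.

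Many members stand side by side on the chromosomes, as the order of genes in the GRCm38.p6 annotation shows. Of the 52 members found there, 32 fell into 9 runs in which no more than 3 other protein-coding genes lay between neighbours. One run on chromosome 11 reads Ccl2, Ccl7, Ccl11, Ccl12, Ccl8, Ccl1, of which Ccl12 and Ccl1 were under the median line. A run on chromosome 5 reads Cxcl5, Cxcl3, Cxcl15, Cxcl1, Cxcl2, of which Cxcl3 and Cxcl2 were under it.

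Promoter letters are shown for 4 genes of the chromosome 5 run, and for the ligand-receptor pair Cxcl12 and Cxcr4. RefSeq promoter windows (250 bases before to 50 after the start of the gene) matched 39 members. Members without a window, Cxcl5, Ccl2, Ccl7 and Ccl11 among them, were not searched for matches. Each line gives the 120 bases before the start, 5′ to 3′ on the gene's strand, in GRCm38.p6. Capitals mark a kappa B-like match (GGGANNTTCC, both strands, where overlapping matches merge into 1 run) or a TATA-like match (TATAAA, both strands).
Cxcl1, chr5:90891125-90891244, plus strand: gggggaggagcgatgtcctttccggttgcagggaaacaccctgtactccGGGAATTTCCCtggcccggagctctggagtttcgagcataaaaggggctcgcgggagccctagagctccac
Cxcl2, chr5:90903779-90903898, plus strand: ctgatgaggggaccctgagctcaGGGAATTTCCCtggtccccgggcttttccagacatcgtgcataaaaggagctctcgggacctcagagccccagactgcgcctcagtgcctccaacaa
Cxcl3, chr5:90785981-90786100, plus strand: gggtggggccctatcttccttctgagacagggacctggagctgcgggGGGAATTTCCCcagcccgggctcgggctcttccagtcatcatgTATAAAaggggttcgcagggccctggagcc
Cxcl15, chr5:90794414-90794533, plus strand: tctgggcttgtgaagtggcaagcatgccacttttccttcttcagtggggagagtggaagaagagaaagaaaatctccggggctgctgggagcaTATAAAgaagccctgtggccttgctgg
Cxcl12, chr6:117168415-117168534, plus strand: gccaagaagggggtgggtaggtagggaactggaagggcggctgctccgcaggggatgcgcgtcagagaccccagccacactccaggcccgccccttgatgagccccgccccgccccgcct
Cxcr4, chr1:128592300-128592419, minus strand: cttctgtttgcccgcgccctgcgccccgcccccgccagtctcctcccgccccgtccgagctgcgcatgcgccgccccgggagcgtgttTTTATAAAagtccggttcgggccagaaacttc

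The neutrophil attractants Cxcl1, Cxcl2 and Cxcl3 carried the same letters GGGAATTTCCC in these windows. A kappa B-like match stood in 6 of the 39 members with a window (Ccl1, Ccr3, Cxcl1, Cxcl2, Cxcl3 and Cxcl10), and in 1.47% of all 32851 windows. A TATA-like match stood in 12 of the 39, and in 13.6% of all windows. An ISRE-like match (TTTCNNTTTC, both strands) stood in 3 (Ccl19, Cxcl10 and Cxcl14), and in 3.44% of all windows. Cxcl12 and Cxcl15 held no kappa B-like letters in the windows. The 39 members have 41 windows between them, so the counts of members and the shares of windows differ in unit. A match is a description of letters and does not show binding.

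Each of 8 fibroblast markers was above the median of all named genes on all arrays (for example Col1a1 from 10.7 to 13.8 and Vim from 12.5 to 13.4). A signal above that line does not by itself show the identity of the cells. Among the delivered factors, Pou5f1 (Oct4) lay at 6.05 to 9.93 on the 16 4F arrays and 6.3 to 10.2 on the 4 3F arrays, above the 5.22 to 5.6 of the 9 GFP arrays. Sox2 lay at 5.74 to 9.48 on the 4F arrays, 5.86 to 9.2 on the 3F arrays and 5.31 to 5.57 on the GFP arrays. Myc was not higher on the 4F arrays (6.37 to 8.5) than on the 3F arrays (7.95 to 9.37), the GFP arrays (6.58 to 9.72) or the day 0 arrays (9.58 and 9.7), and Klf4 was not higher there either (6.65 to 7.61 on the 4F arrays, 7.55 to 8.49 on the 3F arrays, 7.67 to 8.15 on the GFP arrays, and 7.5 and 8.02 on day 0). Whether the probes of these 2 genes can see the viral transcript is not known. Labelling used 120 ng of RNA for replicate 1 arrays, against 300 ng for all others. Ccl7 and Cxcl14 moved with that set: they were higher on the replicate 2 array in 12 of 12 groups, by means of 0.85 and 0.86.

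In fibroblasts that carried the GFP virus, a group of ligands was higher on day 8 than before the virus. Relative to day 0, Ccl11, Cxcl5, Ccl8, Cxcl12, Cxcl15, Cxcl1, Ccl9 and the atypical receptor Ackr3 rose by day 8, between 2.01-fold (Ackr3) and 26.8-fold (Ccl11). No member was called lower, where 11.2% of all named genes were. These 8 of 53 members are 15.1%, where 8.92% of all named genes were called higher. The median difference over the members was 0.1, against 0.02 over all named genes. Groups were compared with limma over all arrays, with p-values adjusted by Benjamini-Hochberg over all 19938 genes and a threshold of 0.05.

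On GFP day 1 no member was called against day 0 (3 had an unadjusted p under 0.05, and 0.0401% of all named genes were called higher by limma). On GFP day 3, 4 members had risen, Cxcl5 by 2.43 ± 0.43 (log2 difference ± SE, adjusted p = 0.013), Ccl20 by 2.38 ± 0.31 (0.0036), Ccl11 by 1.69 ± 0.36 (0.039) and Cxcl1 by 1.06 ± 0.23 (0.043). That is 7.55% of the members, where 0.727% of all named genes were called higher. The day 3 calls depended on single arrays: none of the 4 was kept without day 0 replicate 1 or without GFP day 3 replicate 1, and 1 (Ccl20) was kept without day 0 replicate 2. Without GFP day 3 replicate 2 all 4 were kept and 5 members were called. With the array set as a term in the model Ccl7 (1.21, adjusted p = 0.012) and Cxcl14 (1.73, adjusted p = 0.00069) were called on day 3 as well.

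On GFP day 5, 5 members were higher than on day 0 (5.74% of all named genes were) and 1 was lower (4.83% were). The 5 were Ccl11 (3.91 ± 0.36), Cxcl5 (2.71 ± 0.43), Cxcl12 (1.55 ± 0.33), Cxcl1 (1.44 ± 0.23) and Cxcl15 (0.66 ± 0.14), with limma adjusted p of at most 0.0082. The lower one was Ccr6, the receptor of Ccl20, which is a low member and differed by -0.29 ± 0.07 (adjusted p = 0.015). The call of Cxcl12 was lost without day 0 replicate 1 or GFP day 5 replicate 1, that of Cxcl15 without either replicate 2 array, and that of Ccr6 without day 0 replicate 1 or either GFP array. A model with the array set as a term also called Ccl7 (1.34), Cxcl14 (1.56) and Ackr3 (0.53). GFP day 8 set against GFP day 1, when the virus was already in the culture, gave 8 higher members (4.95% of all named genes were higher): Ccl11 (4.78), Cxcl5 (3.45), Ccl8 (2.46), Cxcl15 (2.02), Cxcl12 (2.01), Cxcl1 (1.92), Ackr3 (1.06) and Ccl19 (0.33), a ligand for lymphocytes and dendritic cells. The Ccl19 call was lost without any 1 of the 4 arrays, and that of Ccl8 without GFP day 1 replicate 2 or GFP day 8 replicate 1. This comparison shares its GFP day 8 arrays with that against day 0.

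Cxcl5, a neutrophil attractant, was at 9.23 and 9.03 on day 0, 9.53 and 8.67 on GFP day 1, 11.92 and 11.2 on day 3, 11.9 and 11.79 on day 5, 12.5 and 12.6 on day 8 and 12.82 on day 12. Most of its climb fell between GFP days 1 and 3, and the GFP day 8 arrays were above both day 0 arrays by 3.42 ± 0.43 (adjusted p = 5.2e-05).

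Cxcl1, which acts on the same receptor Cxcr2, was at 8.19 and 7.52 on day 0, 7.9 and 7.43 on GFP day 1, 9.22 and 8.61 on day 3, 9.42 and 9.16 on day 5, 9.66 and 9.51 on day 8 and 9.9 on day 12. Its course followed that of Cxcl5, with a day 8 difference of 1.73 ± 0.23 (adjusted p = 9.5e-05).

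Cxcl15, a neutrophil attractant best known from mouse lung, was at 4.81 and 4.7 on day 0, 4.65 and 4.67 on GFP day 1, 4.82 and 5.06 on day 3, 5.27 and 5.56 on day 5, 6.39 and 6.97 on day 8 and 8.07 on day 12. It was first called on day 5 and differed by 1.92 ± 0.14 on day 8 (adjusted p = 1.6e-06). Its neighbours Cxcl1 and Cxcl5 had risen by day 3.

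Cxcl12, the ligand of Cxcr4 and Ackr3, was at 8.41 and 8.77 on day 0, 9.15 and 8.83 on GFP day 1, 9.9 and 9.36 on day 3, 10.35 and 9.93 on day 5, 11.45 and 10.55 on day 8 and 11.33 on day 12. It rose in steps, without overlap between day 8 and day 0, by 2.41 ± 0.33 (adjusted p = 0.00011). Cxcl14, a ligand of skin and other resting tissues, was at 7.63 and 8.38 on day 0, 7.71 and 8.52 on GFP day 1, 9.48 and 9.99 on day 3, 9.28 and 9.86 on day 5, 9.21 and 10.15 on day 8 and 10.74 on day 12. The replicate 2 array was the higher one each time, and the day 8 difference of 1.68 ± 0.58 missed the threshold (adjusted p = 0.054). With the array set as a term the same difference had an SE of 0.19 and passed it (adjusted p = 1.8e-05).

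**Figure D2:**
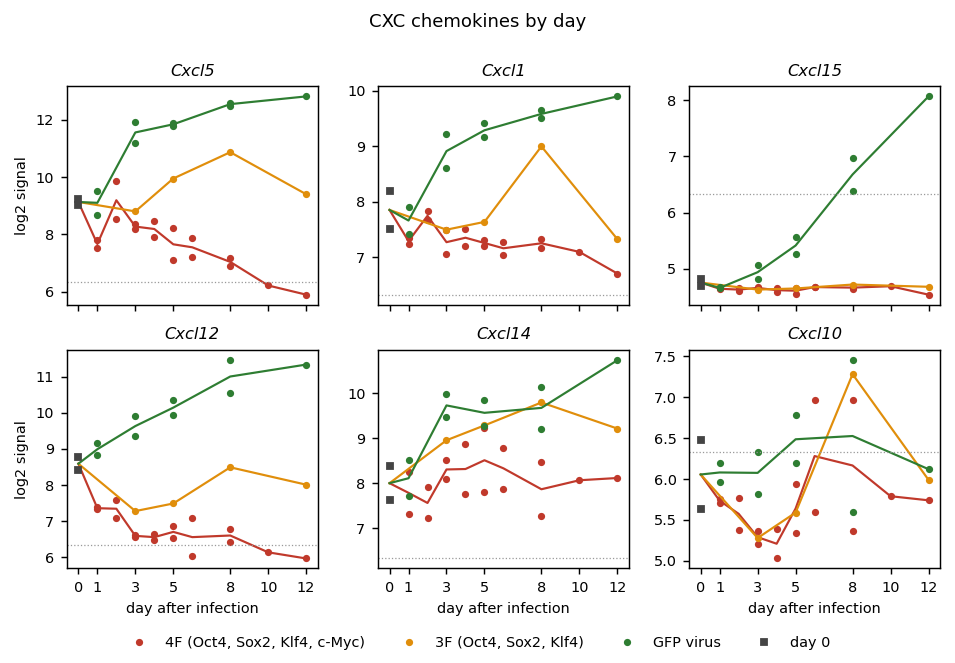
Log2 signal of 6 CXC ligands by day, each dot 1 array and each line the group means of 1 arm, joined to the mean of the 2 day 0 arrays. The dotted line is the median of all named genes. In GFP cells Cxcl5, Cxcl1, Cxcl12 and Cxcl15 climb to day 12, whereas 4F arrays fall or stay, and Cxcl10 shows replicates as far apart as the arms.

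Among the CC ligands, Ccl11 (eotaxin, an eosinophil attractant) changed most. It was at 5.97 and 5.69 on day 0, 5.81 and 5.78 on GFP day 1, 7.69 and 7.36 on day 3, 10.22 and 9.26 on day 5, 10.57 and 10.59 on day 8 and 11.29 on day 12. It was under the median of all named genes on day 0 and above it from GFP day 3 on, with a day 8 difference of 4.75 ± 0.36 (adjusted p = 1.6e-06).

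Ccl8, which in mice acts through Ccr8, was at 5.05 and 5.08 on day 0, 5.51 and 5.06 on GFP day 1, 6.33 and 6.78 on day 3, 6.57 and 6.45 on day 5, 8.19 and 7.31 on day 8 and 8.61 on day 12. Its day 8 difference was 2.69 ± 0.60 (adjusted p = 0.0045), or 2.25 (0.058) without GFP day 8 replicate 1. Ccl9, a ligand of Ccr1, was at 6.03 and 5.86 on day 0 and at 8.23 and 6.51 on GFP day 8, with 6.37 on day 12. That rise rested on 1 array: 1.43 ± 0.38 (adjusted p = 0.014) became 0.56 (adjusted p = 0.22) without GFP day 8 replicate 1, and the call was also lost without either day 0 array.

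Ccl20, the ligand of Ccr6, was different in that it peaked early. It was at 5.84 and 5.89 on day 0, 5.87 and 5.9 on GFP day 1, 8.59 and 7.9 on day 3, 6.26 and 6.96 on day 5, 5.78 and 6.71 on day 8 and 6.27 on day 12. The day 8 arrays overlapped those of day 0 (0.38 ± 0.31, adjusted p = 0.48).

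The monocyte attractants Ccl2 and Ccl7 were above the median of all named genes on every array. Ccl2 was at 9.01 and 8.73 on day 0, 8.84 and 9.0 on GFP day 1, 9.79 and 9.67 on day 3, 9.86 and 9.76 on day 5, 9.53 and 11.03 on day 8 and 9.73 on day 12. Ccl7 was at 9.31 and 9.73 on day 0, 9.43 and 10.04 on GFP day 1, 10.55 and 10.92 on day 3, 10.62 and 11.09 on day 5, 10.62 and 11.56 on day 8 and 11.18 on day 12. Both were above day 0 on all arrays from GFP day 3 on, but their day 8 differences, 1.42 ± 0.56 (adjusted p = 0.098) and 1.57 ± 0.59 (0.076), missed the threshold. Once the array set was a term in the limma model both were called (adjusted p = 0.017 for Ccl2 and 0.00012 for Ccl7), together with Cxcl14 above and the low ligand Ccl6 (0.29), so that 12 members were called higher on day 8 (11.9% of all named genes in the same fit).

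Of the receptors, Ackr3, which takes up Cxcl12, was at 6.39 and 6.07 on day 0, 6.28 and 6.08 on GFP day 1, 6.75 and 6.39 on day 3, 6.54 and 6.98 on day 5, 7.31 and 7.16 on day 8 and 7.86 on day 12. It rose by 1.01 ± 0.16 on day 8 (adjusted p = 0.0004), while its ligand Cxcl12 rose too. Cxcr4, the signalling receptor of the same ligand, was at 6.43 and 6.35 on day 0 and 6.32 and 5.88 on GFP day 8, a difference of -0.29 ± 0.28 (adjusted p = 0.58).

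**Figure D3:**
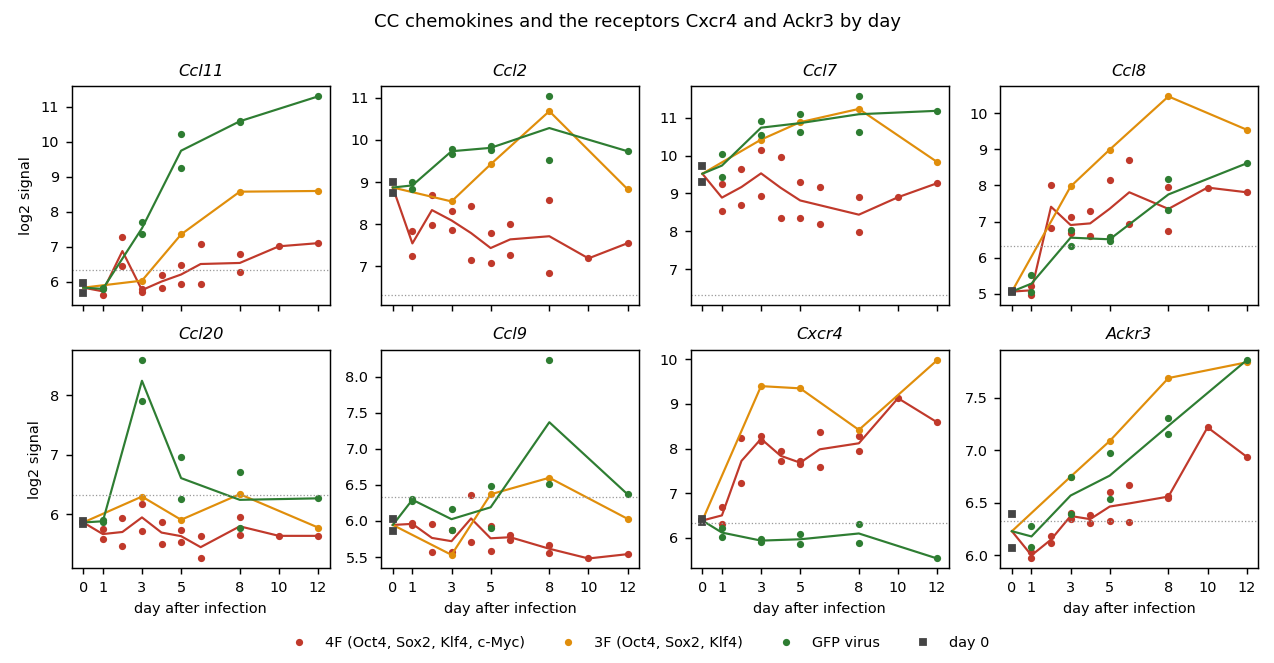
Log2 signal of 6 CC ligands and of the receptors Cxcr4 and Ackr3 by day, each dot 1 array and each line the group means of 1 arm, joined to the mean of the 2 day 0 arrays. The dotted line is the median of all named genes. Ccl11 climbs furthest in GFP cells, Ccl20 peaks there on day 3, Cxcr4 is higher in 4F and 3F cells than in GFP cells from day 3 on, and Ccl8 is highest in 3F cells.

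With the 4 factors most of these ligands were lower than with GFP. On day 8, 13 members were lower in 4F than in GFP cells (24.5% of the members, where 13.0% of all named genes were called lower) and 1 was higher (14.5% of all named genes were). The median difference over the members was -0.17, against -0.03 over all named genes. The lower ones were 6 CXC ligands, 5 CC ligands, Cx3cl1 and Ackr3, and the higher one was Cxcr4. The fibroblast markers moved the same way: their mean over 8 genes was 9.98 in 4F and 12.27 in GFP cells on day 8, against 10.84 on day 0. Fewer cells of a type and less RNA per cell cannot be told apart in such bulk samples, and the part of the fibroblast shift in the chemokine values was not tested.

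**Figure D4:**
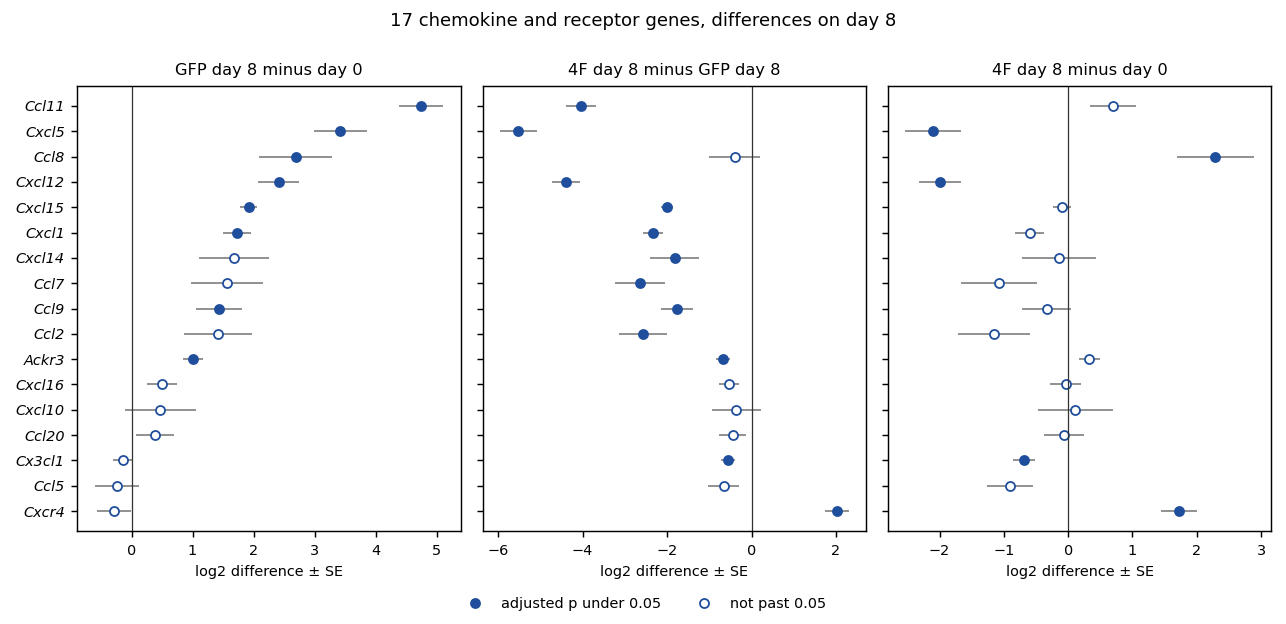
Log2 differences ± SE for the 17 members above the median of all named genes, from the fit over all arrays. Filled dots passed an adjusted p of 0.05. GFP day 8 against day 0 (left) has Ccl11 highest at 4.75, and 4F against GFP on day 8 (middle) has Cxcl5 lowest at -5.52 and Cxcr4 highest at 2.02. In 4F day 8 against day 0 (right) Cxcl5, Cxcl12 and Cx3cl1 were lower and Ccl8 and Cxcr4 higher. The middle and left panels share the GFP day 8 arrays, and the right and left panels the day 0 arrays.

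Cxcl5 was at 6.9 and 7.17 on 4F day 8, against 12.5 and 12.6 on GFP day 8, a difference of -5.52 ± 0.43 (adjusted p = 3.8e-07). On earlier days it was at 7.51 and 7.81 (day 1), 8.53 and 9.85 (day 2), 8.19 and 8.35 (day 3), 7.89 and 8.48 (day 4), 7.09 and 8.21 (day 5) and 7.22 and 7.87 (day 6), and on days 10 and 12 at 6.21 and 5.89. The arrays of days 10 and 12 were the lowest of the 16, and both lay below the median of all named genes.

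Cxcl12 took the same direction earlier and was the one member called on day 1. It was at 7.33 and 7.39 on 4F day 1, against 9.15 and 8.83 on GFP day 1 (-1.63 ± 0.33, adjusted p = 0.023, with 0.391% of all named genes called lower). That call was lost without either 4F day 1 array or without GFP day 1 replicate 1, and with the array set as a term Ccl7 (-0.85, adjusted p = 0.049) joined it. Later 4F arrays of Cxcl12 were at 7.09 and 7.6 (day 2), 6.63 and 6.56 (day 3), 6.47 and 6.65 (day 4), 6.53 and 6.88 (day 5), 6.04 and 7.08 (day 6), 6.78 and 6.43 (day 8), 6.14 (day 10) and 5.97 (day 12). From day 3 on the arrays lay between 5.97 and 7.08, and on day 8 the difference from GFP was -4.39 ± 0.33 (adjusted p = 3.1e-07).

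Ccl11, which had risen most in GFP cells, was called against day 0 on no 4F day with 2 arrays. It was at 5.63 and 5.82 on 4F day 1, 6.46 and 7.29 on day 2, 5.72 and 5.8 on day 3, 5.81 and 6.2 on day 4, 5.92 and 6.49 on day 5, 5.94 and 7.07 on day 6, 6.29 and 6.78 on day 8, 7.01 on day 10 and 7.1 on day 12. Against GFP day 8 the difference was -4.04 ± 0.36 (adjusted p = 1.4e-06). The single arrays of 4F days 10 and 12 were above both day 0 arrays (5.97 and 5.69), without a test.

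Cxcl1 was at 7.17 and 7.34 on 4F day 8, against 9.66 and 9.51 on GFP day 8 (-2.33 ± 0.23, adjusted p = 3.3e-06), and its other 4F arrays lay between 6.71 and 7.83. Cxcl15 was at 4.69 and 4.64 on 4F day 8, against 6.39 and 6.97 on GFP day 8 (-2.01 ± 0.14, adjusted p = 1.8e-07), and did not leave 4.54 to 4.69 on any 4F array. Both neighbours on chromosome 5 thus missed the climb seen in GFP cells, as did Cxcl5 of the same run. The low member Cxcl2 of that run was lower on day 8 as well, by -0.37 ± 0.13 (adjusted p = 0.046), a call that was lost when any 1 of the 4 arrays was left out.

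The monocyte attractants were lower with the 4 factors. Ccl2 was at 6.85 and 8.58 on 4F day 8, against 9.53 and 11.03 on GFP day 8 (-2.57 ± 0.56, adjusted p = 0.0027), and its other 4F arrays lay between 7.07 and 8.7. Ccl7 was at 7.98 and 8.9 on 4F day 8, against 10.62 and 11.56 on GFP day 8 (-2.65 ± 0.59, adjusted p = 0.0029), and its other 4F arrays lay between 8.2 and 10.14. In both genes the replicate 2 array was higher in each arm, and the groups did not overlap.

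Cxcl14 was at 7.27 and 8.47 on 4F day 8, against 9.21 and 10.15 on GFP day 8 (-1.82 ± 0.58, adjusted p = 0.028), a call lost without 4F day 8 replicate 1 (-1.22, adjusted p = 0.25) or GFP day 8 replicate 2 (-1.35, adjusted p = 0.2). Ccl9 was at 5.67 and 5.56 on 4F day 8, against 8.23 and 6.51 on GFP day 8 (-1.76 ± 0.38, adjusted p = 0.0025), where the first GFP array again stood apart. Smaller differences were called for Ackr3 (-0.68 ± 0.16), for Cx3cl1, the fractalkine that holds leukocytes to vessel walls (-0.55 ± 0.17), and for Ccl19 (-0.30 ± 0.09), with adjusted p between 0.0052 and 0.026. The Cx3cl1 call was lost without 4F day 8 replicate 1 or GFP day 8 replicate 2, and the Ccl19 call without any 1 of the 4 arrays. Under the model with the array set the low members Ccl6 (-0.26), Ccl12 (-0.29) and Cx3cr1 (-0.43) were also called lower.

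Ccl8 was not called between the arms. It was at 5.22 and 4.98 on 4F day 1, 6.81 and 8.01 on day 2, 6.69 and 7.12 on day 3, 6.61 and 7.29 on day 4, 6.56 and 8.15 on day 5, 6.92 and 8.7 on day 6, 6.75 and 7.95 on day 8, 7.94 on day 10 and 7.81 on day 12. Its jump between 4F days 1 and 2 came at a time without a GFP array, and its 4F and GFP levels overlapped on day 8 (-0.40 ± 0.60, adjusted p = 0.71). An SE of that size does not show that the 2 arms were alike.

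Cxcr4 was the only member called higher in 4F than in GFP cells, on days 3, 5 and 8 and over days 3 to 12. It was at 6.31 and 6.7 on 4F day 1, 7.22 and 8.23 on day 2, 8.28 and 8.16 on day 3, 7.95 and 7.73 on day 4, 7.65 and 7.72 on day 5, 7.59 and 8.38 on day 6, 8.29 and 7.95 on day 8, 9.13 on day 10 and 8.59 on day 12. Each 4F array from day 2 on was above all 9 GFP arrays, which lay between 5.54 and 6.32. The day 8 difference was 2.02 ± 0.28 (adjusted p = 6.7e-05), so the receptor was up where its ligand Cxcl12 was down.

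Earlier days gave fewer calls, among the members as among all named genes. On day 3, 7 were lower in 4F than in GFP cells (5.65% of all named genes were) and 1 was higher (6.28% were). They were Cxcl5 (-3.29), Cxcl12 (-3.04), Ccl20 (-2.30), Ccl11 (-1.77), Cxcl1 (-1.64), Cx3cl1 (-0.65) and Cxcl2 (-0.57), with Cxcr4 higher (2.28). Ccl20 had 5.72 and 6.18 on 4F day 3, against 8.59 and 7.9 on GFP day 3, so its early GFP peak was missing with the 4 factors (SE 0.31, adjusted p = 0.0002). On day 5, 8 were lower (10.9% of all named genes were) and 1 was higher (10.5% were), namely Cxcl5 (-4.19), Ccl11 (-3.54), Cxcl12 (-3.43), Ccl2 (-2.37), Ccl7 (-2.04), Cxcl1 (-2.03), Ccl20 (-0.98) and Cxcl15 (-0.81), and Cxcr4 (1.72). The array set as a term gave further lower calls for Ccl2 (-1.64), Ccl7 (-1.2) and Cxcl14 (-1.43) on day 3, and for Cxcl14 (-1.05) on day 5. Without GFP day 3 replicate 1 the day 3 calls of Ccl11, Cx3cl1 and Cxcl2 were lost, and without 4F day 5 replicate 1 the day 5 calls of Ccl2, Ccl7 and Ccl20. Other single arrays ended the day 3 calls of Cx3cl1 (4F replicate 2) and Cxcl2 (4F replicate 1), and the day 5 calls of Ccl20 (4F or GFP replicate 2) and Ccl7 (either GFP array).

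Whether the gap between 4F and GFP cells widened from day 1 to day 8 was tested directly. It did for 5 members in the lower direction (4.57% of all named genes) and for 1 in the higher direction (3.92%). The widening was -4.08 ± 0.60 for Cxcl5 (adjusted p = 0.00071), -3.97 ± 0.52 for Ccl11 (0.00029), -2.76 ± 0.47 for Cxcl12 (0.0019), -2.0 ± 0.2 for Cxcl15 (4.2e-05) and -1.96 ± 0.33 for Cxcl1 (0.0018). For Cxcr4 it was 1.64 ± 0.40 (0.018), a call that was lost without any 1 of 4 arrays (4F day 1 replicate 1, 4F day 8 replicate 1, GFP day 1 replicate 2 or GFP day 8 replicate 2). In the fit with the array set Ccl7 (-1.8), Cxcl14 (-1.49) and Ccl19 (-0.42) were called as well.

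Against day 0, few members moved with the 4 factors. On 4F day 1 none was called (4 had an unadjusted p under 0.05, and limma called 0.512% of all named genes higher and 0.326% lower). Day 2 gave 2 higher and 2 lower members, where 4.44% and 4.91% of all named genes were called higher and lower. Day 3 gave 1 and 2 (4.6% and 3.93% of all named genes), and day 4 gave 1 and 2 (4.74% and 5.33%). There were 2 higher and 3 lower members on day 5 (6.47% and 7.08%), on day 6 (8.14% and 7.98%) and on day 8 (7.39% and 8.51%). The members' shares were near or below those of all named genes.

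The same few genes made up these calls. Cxcl12 and Cx3cl1 were lower and Cxcr4 was higher than on day 0 on each of 4F days 2, 3, 4, 5, 6 and 8. On day 8 the differences were -1.99 ± 0.33 for Cxcl12, -0.69 ± 0.17 for Cx3cl1 and 1.73 ± 0.28 for Cxcr4 (adjusted p of 0.00067, 0.011 and 0.00057). Cxcl5 was lower on days 5, 6 and 8 (-2.10 ± 0.43 on day 8, adjusted p = 0.0031). Ccl8 was higher on days 2, 5, 6 and 8 (2.29 ± 0.60 on day 8, adjusted p = 0.016), and its day 8 call was lost without 4F day 8 replicate 2 (1.69, adjusted p = 0.14) or either day 0 array. Without day 0 replicate 2, further calls were lost for Cx3cl1 (days 2, 4, 5 and 8), Cxcl5 (days 5 and 6), Ccl8 (days 2 and 5) and, on day 2, Cxcl12 and Cxcr4. Each of these except Cx3cl1 on day 5 was also lost without a 4F array of the same day. Those of Cxcl5, Ccl8 and Cxcl12 were lost without day 0 replicate 1 as well. The day 6 call of Ccl8 was lost without 4F day 6 replicate 2 (1.86, adjusted p = 0.082). Cx3cl1 was at 6.01 and 6.2 on 4F day 8, against 6.66 and 6.92 on day 0.

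With the array set as a term the calls were more numerous, among the members as among all named genes. On 4F day 6, 11 members were called (9 lower and 2 higher) in place of 5, where 10.7% of all named genes were called lower and 11.6% higher in that fit. On day 8 it was 8 (6 lower and 2 higher) in place of 5, with 11.7% and 10.5% of all named genes. On day 4 it was 5 (3 lower and 2 higher) in place of 3, with 7.9% and 7.58%. Calls gained on day 6 were Ccl2 (-1.23), Ccl5 (-1.08), Ccl7 (-0.83), Cxcl1 (-0.69), Ccl3 (-0.48) and Ccl17 (-0.33), and on day 8 Ccl7 (-1.08), Cxcl1 (-0.6) and Ccl17 (-0.32). Ccl5, a lymphocyte attractant, was at 7.65 and 6.11 on the day 0 arrays themselves. Gained on day 5 were Ccl2 (-1.43) and Ccl7 (-0.7), on day 4 Ccl5 (-1.06) and Ccl8 (1.89), and on day 3 Ccl8 (1.84).

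Pooled over days 3, 5, 8 and 12 in a model of day and arm, 19 members were lower in 4F than in GFP cells (17.8% of all named genes were) and Cxcr4 was higher by 2.16 ± 0.20 (18.2% were). The members most below GFP were Cxcl5 (-4.70), Cxcl12 (-3.87), Ccl11 (-3.27), Ccl2 (-2.19), Cxcl1 (-2.17), Ccl7 (-1.96), Cxcl14 (-1.60), Cxcl15 (-1.39) and Ccl20 (-1.15). Differences under 1 were called for Ccl9, Ccl5, Cxcl16, Ackr3, Cx3cl1, Cxcl2, Cxcl3, Ccl12, Ccl19 and Ccl28 (from -0.83 to -0.11). Ccl5 (-0.72) and Cxcl16, a ligand anchored in the membrane (-0.53), were not called on a single day. Leaving out the arrays of 1 day ended some of these calls, namely those of Ackr3, Ccl9, Ccl12, Ccl19, Ccl28, Cxcl2, Cxcl3, Cxcl15 and Cxcl16.

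Cells with 3 factors lay between the other arms for some ligands and above both for others. Each 3F day has 1 array, so its days stand in for replicates in the model of day and arm, and the 3F arrays belong to the set without a replicate number. Against GFP, 8 members were lower in 3F cells (8.82% of all named genes were) and 2 were higher (9.47% were). Against 4F, 8 members were higher in 3F cells (15.1% of the members, where 5.77% of all named genes were) and none was lower. In a fit with the array set, where 3F can be compared through its day 12 array alone, 3 members were called against GFP, Cxcl12 and Cxcl1 lower (5.72% of all named genes were) and Cxcr4 higher (8.18% were). Against 4F that fit called no member and 0.0552% of all named genes higher. Sizes moved by over 1.5 times there for Ccl7 (0.59 ± 0.49 from 4F, adjusted p = 0.89), Cxcr4 (1.84 ± 0.43 from 4F, 0.18), Cxcl15 (-2.32 from GFP, 0.065) and Ccl19 (-0.39 from GFP, 0.061). The mean of the fibroblast markers was 11.4 on 3F day 8, against 9.98 on 4F day 8 and 12.27 on GFP day 8, and its part was not tested.

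**Figure D5:**
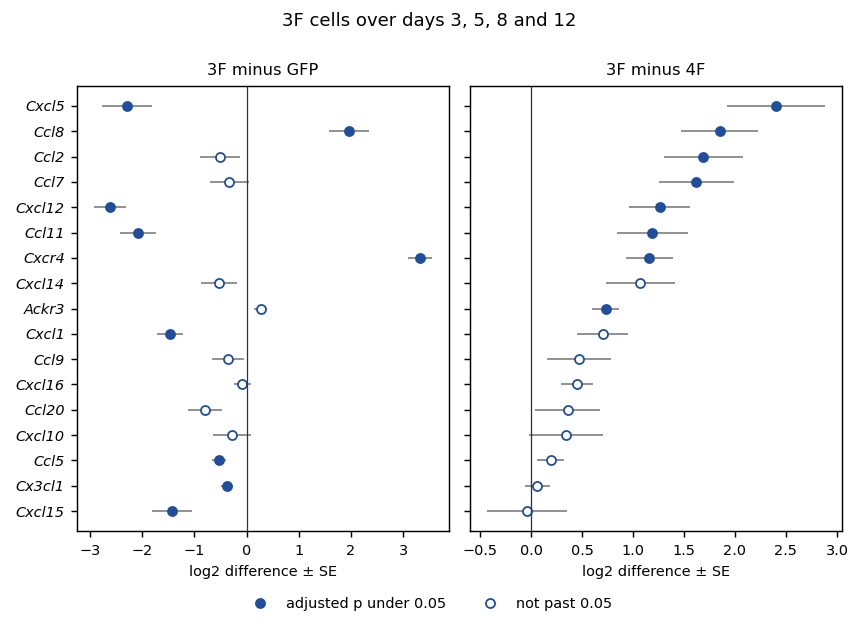
Log2 differences ± SE of 3F cells from GFP cells (left) and from 4F cells (right) over days 3, 5, 8 and 12, for the 17 members above the median of all named genes. Filled dots passed an adjusted p of 0.05. Cxcl5, Cxcl12 and Ccl11 lie below GFP and above 4F, and Ccl8 and Cxcr4 lie above both; the panels share the 3F arrays.

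Lower than GFP and higher than 4F were Cxcl12, Cxcl5 and Ccl11. Cxcl12 was at 7.28, 7.49, 8.49 and 8.01 in 3F cells on days 3, 5, 8 and 12. Its differences were -2.62 ± 0.30 from GFP (adjusted p = 3.7e-05) and 1.26 ± 0.30 from 4F (0.019). Cxcl5 was at 8.8, 9.95, 10.87 and 9.4, with differences of -2.30 ± 0.48 from GFP (0.0039) and 2.40 ± 0.48 from 4F (0.0088). Ccl11 was at 6.03, 7.35, 8.57 and 8.59, with differences of -2.08 ± 0.35 from GFP (0.00081) and 1.19 ± 0.35 from 4F (0.047). Ccl11 was higher on 3F days 8 and 12 than on days 3 and 5, without a test, and below GFP on each day.

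Cxcl1 and Cxcl15 were below GFP (-1.47 ± 0.25, adjusted p = 0.00097, and -1.43 ± 0.39, adjusted p = 0.019). Cxcl1 was at 7.5, 7.64, 9.0 and 7.33 in 3F cells on days 3, 5, 8 and 12, and its difference from 4F of 0.70 ± 0.25 missed the threshold (adjusted p = 0.097). Cxcl15 was at 4.63, 4.65, 4.72 and 4.68, and only the day 8 value lay just above the narrow span of the 4F arrays. Ccl5 (-0.53), Cx3cl1 (-0.38) and Ccl19 (-0.24) were lower than in GFP cells as well. The Cxcl15, Cx3cl1 and Ccl19 calls were lost without the 3F day 8 array, and that of Ccl5 without the arrays of day 5. Leaving out all arrays of day 5 or 8 ended the Cxcl15 call. Day 3, 5 or 8 did so for Cx3cl1, and day 5, 8 or 12 for Ccl19. With the array set as a term Cxcl15, Ccl5, Cx3cl1 and Ccl19 were not called.

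Ccl8 and Cxcr4 were higher in 3F cells than in both other arms in the model of day and arm. With the array set as a term, only the Cxcr4 difference from GFP was still called. The call of Ccl8 against 4F was also lost without the arrays of day 5 or day 8. Ccl8 was at 7.97, 8.99, 10.46 and 9.54 on 3F days 3, 5, 8 and 12. On those days the 4F arrays lay at 6.69 and 7.12, 6.56 and 8.15, 6.75 and 7.95, and 7.81, and the GFP arrays at 6.33 and 6.78, 6.57 and 6.45, 8.19 and 7.31, and 8.61. The 3F array was the highest on each day, with differences of 1.85 ± 0.38 from 4F (adjusted p = 0.01) and 1.97 ± 0.38 from GFP (0.0024).

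Cxcr4 was at 9.4, 9.35, 8.42 and 9.98 on 3F days 3, 5, 8 and 12, above the 8.28 and 8.16, the 7.65 and 7.72, the 8.29 and 7.95, and the 8.59 of the 4F arrays of the same days. It was higher by 1.16 ± 0.23 than in 4F cells (adjusted p = 0.0086) and by 3.32 ± 0.23 than in GFP cells (3.8e-07). On day 8 its 3F and 4F arrays were closest.

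Ccl2, Ccl7 and Ackr3 were higher in 3F than in 4F cells and not called against GFP. Ccl2 was at 8.54, 9.42, 10.68 and 8.83 on 3F days 3, 5, 8 and 12 (1.69 ± 0.39 from 4F, adjusted p = 0.016, and -0.51 ± 0.39 from GFP, adjusted p = 0.42). Ccl7 was at 10.42, 10.88, 11.23 and 9.83 (1.62 ± 0.37 from 4F, 0.015, and -0.33 ± 0.37 from GFP, 0.59). Ackr3 was at 6.75, 7.09, 7.69 and 7.84 (0.73 ± 0.13 from 4F, 0.005, and 0.27 ± 0.13 from GFP, 0.18). With SEs of this size the GFP differences of Ccl2 and Ccl7 could still be sizeable in either direction. Cxcl14, at 8.96, 9.29, 9.8 and 9.22, missed the threshold against 4F (1.07 ± 0.34, adjusted p = 0.062).

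The number of 3F calls against 4F depended on the arrays of single days. On day 8 the 3F array was the highest of the arms for 9 of the 17 members over the median line. It was above the 4F mean for 17 of 17, and on days 3, 5 and 12 for 14, 15 and 16. Shares of all named genes are not given for these counts. The line was drawn on highest group means, and 3F day 8 was the highest group for Ccl2, Ccl7, Ccl8, Cxcl10 and Cxcl16. Each 3F value is also a single array set against group means. The counts are therefore not read as a result about the members. Without the 3F day 8 array, an alternative chosen after seeing the data, 2 members (Cxcr4 and Ackr3) were called against 4F in place of 8, and 8 against GFP in place of 10. Without the arrays of day 5 none was called against 4F, and without those of day 8 Cxcr4 was the 1 member called. All sizes kept their direction in these fits. Shares of all named genes are not given for them, so the loss of calls is not read as particular to the members.

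Cxcl10, the interferon-induced ligand of Cxcr3, was at 7.28 on 3F day 8, 5.37 and 6.96 on 4F day 8, 5.6 and 7.45 on GFP day 8, and 6.48 and 5.63 on day 0. Its replicates were nearly as far apart as its groups, and it was called in no comparison that kept all arrays.

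Some members ran together over the 31 arrays, which share arms, days and labelling sets, so the values are a description. Pearson's r was 0.94 between Cxcl1 and Cxcl5 of one chromosomal run, 0.93 between Cxcl12 and Cxcl5, which lie on different chromosomes, and 0.92 between the neighbours Ccl2 and Ccl7. Likeness in course was thus not limited to neighbours.

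Genes tied to inflammatory chemokine production were counted by lists, which hold brakes such as Il1rn and Nfkbia as well as drivers. Their part in the chemokine values was not tested. Of 18 measured inducers and sensors of inflammation, 8 were higher on GFP day 8 than on day 0 (8.92% of all named genes were) and 11 lower in 4F than in GFP cells on day 8 (13.0% were). Il33, an alarmin that cells release on damage, was at 9.0 on GFP day 8 and 5.33 on day 0 (3.67 ± 0.33), and at 5.42 on 4F day 8 (-3.58 ± 0.33 from GFP). The receptors Tlr2 (1.72), Il4ra (1.69), Osmr (1.47) and Tnfrsf1a (1.12) and the interleukin 1 antagonist Il1rn (2.03) rose in GFP cells. Il1rn was also called higher than on day 0 on 4F days 2, 3, 4, 5, 6 and 8. It was higher in 4F than in GFP cells on day 3 (2.46), and higher in 3F than in GFP cells (2.39). In 4F cells Il4ra (-3.33), Osmr (-2.34), the cytokine Il6 (-2.24), Tnfrsf1a (-1.99), Tlr4 (-1.84), Tlr2 (-1.36), Il17ra (-1.13) and Ifngr1 (-1.07) were lower than in GFP cells.

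Of 19 NF-kB and IRF genes, 9 were higher on GFP day 8 than on day 0 (8.92% of all named genes) and 6 lower in 4F than in GFP cells on day 8 (13.0%). The inhibitor Nfkbia (1.38), the NF-kB cofactor Bcl3 (1.23) and the transcription factor Cebpb (1.01) rose in GFP cells by at least 1. Bcl3 was also called higher than on day 0 on 4F days 2, 3, 4, 5, 6 and 8. Nfkbiz (-1.87) and Cebpb (-1.82) were lower by at least 1 in 4F cells. Nfkbia and Nfkbiz are themselves targets of NF-kB.

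Of 18 measured signalling genes behind the receptors, 4 were lower on GFP day 8 than on day 0 (11.2% of all named genes were) and none was called higher by limma (8.92% were), with Rgs16, a brake on G proteins, at -1.20 ± 0.35. In 4F cells 5 were higher (14.5% of all named genes were) and 1 lower (13.0%) than in GFP cells on day 8, none by 1 or more.

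Of 13 genes that trim chemokines or build the heparan sulfate they bind, 5 were higher on GFP day 8 than on day 0 (8.92% of all named genes). Mmp2, a protease that can cut Cxcl12 and Ccl7, rose by 2.90 ± 0.27, Ctsk by 2.29 ± 0.23 and Mmp14, an activator of Mmp2, by 1.31 ± 0.25. In 4F cells 8 were lower than in GFP cells on day 8 (13.0% of all named genes), by at least 1 Ctsk (-3.38), Mmp14 (-2.37), Mmp2 (-2.35), Sdc4 (-1.57), Hspg2 (-1.46) and Sdc1 (-1.07), and 2 were higher (14.5%). One of these 2 was Dpp4, a peptidase that inactivates Cxcl12, at 9.58 in 4F and 6.3 in GFP cells (3.28 ± 0.28, adjusted p = 7.5e-07). The Dpp4 transcript was thus higher, and the Mmp2, Mmp14 and Ctsk transcripts were lower, in 4F than in GFP cells on day 8. Any effect on Cxcl12 was not tested.

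Of 9 chemokine-like genes outside the naming rule, 1 (Cmtm3, 0.91 ± 0.22) was higher on GFP day 8 than on day 0, a share near the 8.92% of all named genes. In 4F cells 2 were lower than in GFP cells on day 8 (13.0% of all named genes), Cmtm3 (-2.06) and the platelet chemokine Ppbp (-2.30 ± 0.67, adjusted p = 0.018). All these lists were chosen with earlier results of these data known, so their counts are no independent evidence.

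Markers of leukocytes, the other known source of chemokines, gave a mixed signal. Of 11 macrophage genes 7 were low, with Ptprc (CD45) at 4.84 to 5.38 and Adgre1, a surface protein of tissue macrophages, at 4.78 to 5.36 over all arrays, and the list mean was 5.33 on 4F day 8, 5.63 on GFP day 8 and 5.56 on day 0. The other 4 passed the median line, with Cd68 at 5.79 to 9.17, Lyz2 at 5.07 to 8.47, Cd14 at 5.02 to 7.63 and Csf1r up to 6.37. Over all groups that mean lay between 5.19 and 5.77. Of its members, Cd14 was higher on GFP day 8 than on day 0 (1.33 ± 0.33), and Cd14 (-1.51) and Lyz2 (-1.87) were lower in 4F than in GFP cells on day 8. All 4 measured T cell genes, all 6 neutrophil genes and 4 of 5 endothelial genes were low, and Kdr was lower on GFP day 8 than on day 0 (-0.92). The part of these markers in the chemokine values was not tested.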

How the data were processed

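Per the labels' protocols, biotin-labelled targets from total RNA were hybridized to single-colour mouse arrays. The authors deposited 1 table of log2 signals (28853 probe sets, 31 arrays, values from 4.27 to 14.3); the sources used here do not say how they were normalized. Array medians lay between 6.04 and 6.17, and the values were used as deposited. Of the probe sets, 21789 carry 1 symbol, 1621 several and 5443 none; 21698 Entrez IDs matched the reference of gene names. Of several probe sets of a gene (999 genes, among members Ccl19 and Ccl25), the one brightest on average over the arrays stood for the gene. Close paralogs may share signal, which was not examined.

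limma 3.58.1 in R 4.3.3 fitted 1 mean for each of 19 groups (12 residual degrees of freedom, 2.68 prior) and, for 3F and the pooled comparison, day plus arm over days 3, 5, 8 and 12 (12 residual, 2.26 prior). Benjamini-Hochberg adjusted p-values over 19938 genes were called under 0.05. The scripts were tested on simulated data. The number of arrays limits the precision. The labels call replicates biological without naming separate cultures, so p-values measure the spread between these arrays.

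Arrays of 1 replicate number share a labelling amount per the labels, so the number was taken to pair samples. In 66 pairs of groups the replicate differences correlated across genes with r from 0.081 to 0.69 (median 0.32; 65 over 0.1). The fit with the array set as a term (the replicate block) has 11 residual degrees of freedom, or 10 for day plus arm.

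Members called in the GFP day 8, 4F against GFP day 8 or 3F comparisons with a log2 difference of at least 1 were given array by array; other called members by their difference, the rest by ranges; list genes were named from 1 up. The members, lists and tests were chosen with earlier results of these data known.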

Additional observations from a re-analysis of the deposited data

Results flagged for a closer look

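For 6 members the difference between 4F and GFP cells was not the same on day 8 as on day 1, by a test of that change itself (limma, adjusted over all named genes). The change was -4.08 for Cxcl5, -3.97 for Ccl11, -2.76 for Cxcl12, -2.0 for Cxcl15 and -1.96 for Cxcl1 (log2 units, 4F minus GFP on day 8 less the same on day 1). For Cxcr4 it was 1.64, and this call was lost without 4F day 1 replicate 1 (adjusted p = 0.078), 4F day 8 replicate 1 (0.063), GFP day 1 replicate 2 (0.07) or GFP day 8 replicate 2 (0.071). No cause was tested.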

How the results depend on the processing

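Of 1255 repeats of a member's call under another setting, 1071 stayed past the threshold, 184 did not and none changed direction. Array groups of 2, single arrays on 3F days and low signal limit what could be called. The replicate block raised the count of called members to 2 for 4F against GFP on day 1, 5 for 4F day 4, 11 for 4F day 6 and 8 for 4F day 8 against day 0, and left 3 for 3F against GFP and 0 for 3F against 4F; it ended 15 calls, all in the 3F comparisons, and gained those given above. With only the arrays of the groups compared, the counts were 0 for GFP day 3 against day 0, 0 and 8 for 4F against GFP on days 1 and 8, and 1, 5 and 3 for 4F days 2, 3 and 8 against day 0. With genes of low mean signal left out, so that fewer were tested, they were 9 for 4F against GFP on day 8, 6 for 3F against GFP and 9 for 4F against GFP over days 3 to 12. No other count moved by more than 1.5 times under quantile normalization, a trend in the prior spread or the mean of a gene's probe sets.

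Leaving out 1 array at a time gave, against day 0, 0 to 0 called members for GFP day 1, 0 to 5 for day 3, 4 to 6 for day 5 and 7 to 11 for day 8. For 4F days 1, 2, 3, 4, 5, 6 and 8 it gave 0 to 0, 1 to 2, 3 to 5, 3 to 4, 3 to 5, 4 to 7 and 4 to 6. GFP day 8 against day 1 gave 6 to 9. For 4F against GFP on days 1, 3, 5 and 8 it gave 0 to 1, 6 to 8, 6 to 8 and 11 to 14, and for the change between days 1 and 8, 5 to 7. Leaving out 1 day, or the 3F day 8 array, gave 6 to 9 for 3F against GFP, 0 to 8 for 3F against 4F and 14 to 20 for 4F against GFP.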
